A study of Neurospora crassa with 24 samples.

Results

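Carbon starvation was compared with 2% glucose in the wild-type (WT) strain of the filamentous fungus *Neurospora crassa*, with the 2 WT libraries without carbon source (no carbon) set against the 2 WT libraries at 2% glucose, 4 of the 24 libraries of the series. Membership followed from strain and medium alone, and every gene was compared on log2(FPKM + 1), where FPKM is the count of fragments of a gene scaled to its transcript length and to all fragments mapped in the library. The other 20 libraries, 2 per combination of strain and medium, were WT at 0.05 and 0.5% glucose and the gene deletion strains Δ*rco-3* and Δ*col-26* in all 4 media (no carbon and 0.05, 0.5 and 2% glucose). All mycelia had first grown from conidia for 16 h at 28 °C in constant light in liquid Vogel's minimal medium with 2% sucrose. After washing they spent 1 h in the same minimal medium with the glucose concentration stated. The culture conditions described for both WT groups thus differed only in the last hour's carbon source. The libraries carry the strain label OR74A, both mutants are deletion strains of mating type a from a stock center, and the study described its replicates as 2 independent samples per group.

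*N. crassa* is a saprotroph that takes glucose first when it is present and represses genes for other carbon sources meanwhile, a control known as carbon catabolite repression. When sugar runs out, fungi generally make glucose from smaller carbon compounds through the glyoxylate cycle and gluconeogenesis, oxidise fatty acids in peroxisomes and recycle their own protein, and they spend less on new ribosomes. RCO-3 is a sugar-transporter-like glucose sensor of the plasma membrane, and COL-26 is a zinc cluster transcription factor of glucose and starch use.

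The libraries were close to each other in quality. Summed FPKM was 565181 and 571479 without carbon, against 612197 and 609599 at 2% glucose, and relative depth read from the steps of low values was 97.2 and 98.4% of that of the first 2% glucose library without carbon and 100% for both at 2% glucose, a method that favours similar depths. Fragment counts were not part of the values used, so no counting intervals are given. Replicates correlated across genes at 0.998 without carbon and 0.999 at 2% glucose (Pearson, on the log2 scale), and among genes above 20 FPKM the log2 difference between replicates had an SD of 0.11 without carbon and 0.06 at 2% glucose. The mycelium label was checked with marker genes. *hex-1*, the gene of the Woronin body protein that plugs the septal pores of hyphae, stood at 4387 and 4002 FPKM without carbon, against 4681 and 4911 FPKM at 2% glucose. The 5 conidial markers *con-6*, *con-8*, *con-10*, *eas* and *fl* summed to 365 and 356 FPKM without carbon (0.0647 and 0.0624% of all FPKM), against 12.5 and 12.8 FPKM at 2% glucose, and none was at 0. Their part in the differences between the groups was not tested. The 13 markers of sexual development summed to 123 and 120 FPKM without carbon, against 113 and 117 FPKM at 2% glucose, with 1 to 3 of them at 0 in each library. *rco-3* was at 0 in the Δ*rco-3* libraries of both media, whereas *col-26* was at 10.5 ± 0.21 FPKM without carbon and 8.21 ± 0.007 FPKM at 2% glucose in the libraries labelled Δ*col-26* (SD, n = 2 each), so an absent transcript did not bear out the Δ*col-26* label.

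Starvation for 1 h changed a large share of the transcriptome. Of 7981 genes tested, 2338 (29.3%) were called, with 1352 (16.9%) higher and 986 (12.4%) lower without carbon. A call needed an adjusted p below 0.001 (limma, Benjamini-Hochberg), a log2 fold change of 1 or more in either direction and a mean above 20 FPKM in 1 or both groups, and the adjusted p of the called genes ran between 5.63e-31 and 1.34e-05. The adjusted p alone passed for 6460 genes (80.9%), and in 7469 genes (93.6%) the 2 libraries of one group lay wholly above those of the other, so separation of the libraries by itself set few genes apart. Of the 4174 genes above 20 FPKM in either group 56% were called. The genes called higher had a median log2 fold change of 1.96, and 200 of them were past 4. The genes called lower had a median of -2.12, and 146 were past -4. Larger shifts were therefore common in both directions.

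**Figure D1:**
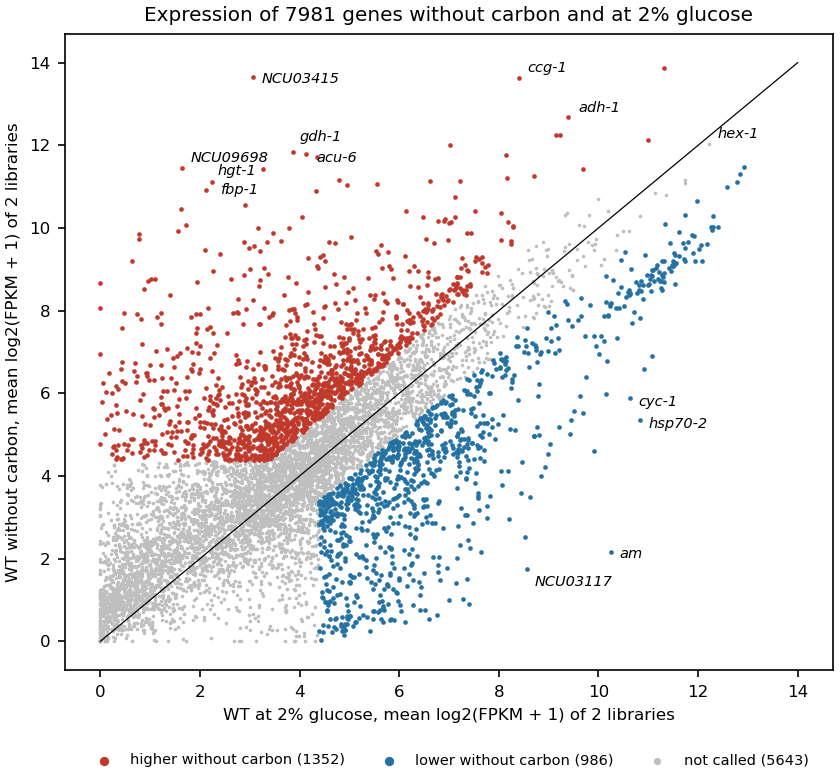
Mean log2(FPKM + 1) of each of 7981 genes in WT without carbon (vertical axis) against WT at 2% glucose (horizontal axis), 2 libraries each, with genes called higher in red, called lower in blue and not called in grey, and equal levels on the line. The 1352 higher genes reach the top left corner, with *NCU03415* farthest from the line, and *am* lies farthest on the lower side.

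FPKM express each gene relative to the rest of its library, and the split between directions depended on that scaling. The median log2 fold change over all genes tested was 0.31 as deposited and 0.02 after median-ratio scaling. Of the calls, 57.8% were higher as deposited, 45.1% under median-ratio scaling (1029 higher and 1253 lower) and 49.5% under quantile normalization (1134 higher and 1155 lower). The 100 most abundant genes held 35.5% of all FPKM in each library without carbon, against 46.6 and 46.2% at 2% glucose, and 3447 and 3431 genes exceeded 20 FPKM without carbon, against 3095 and 3100 at 2% glucose. The medians of 5 of the gene lists described below changed sign with this scaling, at -0.16 for the respiratory chain, -0.08 for the pentose phosphate pathway, -0.19 for glycogen and trehalose, -0.20 for glucose signalling and -0.30 for the cell wall. Fold changes below are as fitted, and a value of 0.31 therefore marks the median gene.

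The 4 largest increases were found in loci that carry no gene symbol in the annotation. *NCU03415* (chromosome II, 807643 to 809921, assembly NC12) had 12697 and 13145 FPKM without carbon, against 7.29 and 7.56 FPKM at 2% glucose, a log2 fold change of 10.58 ± 0.040 (SE) or 10.28 relative to the median gene. *NCU09698* had 2789 and 2823 FPKM without carbon, against 2.23 and 2.04 FPKM at 2% glucose (9.81 ± 0.036). Both loci were low at 2% glucose, and starvation brought the first of them among the 5 most abundant transcripts. *NCU00129*, annotated as an AMP-binding domain protein, had 935 and 929 FPKM without carbon, against 0.72 FPKM in both libraries at 2% glucose (9.08 ± 0.048), and its locus overlaps another, so the values may include reads of both. *NCU01231* had 843 and 867 FPKM, against 0.80 and 0.62 FPKM (8.97 ± 0.064). In all 4 loci the libraries of the groups lay far apart.

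The largest decrease was that of *am*, the gene of the NADP-specific glutamate dehydrogenase that builds ammonium into glutamate (chromosome V, 3200862 to 3203095). It had 3.60 and 3.39 FPKM without carbon, against 1209 and 1246 FPKM at 2% glucose. The log2 fold change was -8.10 ± 0.155 (SE from the spread pooled over all groups of the series, n = 2 each). *gdh-1*, which encodes the NAD-specific glutamate dehydrogenase that works in the opposite direction and releases ammonium from glutamate, moved the other way, with 3643 and 3734 FPKM without carbon, against 14.04 and 13.36 FPKM at 2% glucose (7.97 ± 0.034). The 2 glutamate dehydrogenases thus exchanged places, each high in the medium in which the other was low. Next among the decreases came 3 loci without a name, *NCU03117* (-6.82 ± 0.057), *NCU03396* (-6.50 ± 0.058) and *NCU01290* (-6.27 ± 0.090). *NCU03117* had 2.25 and 2.44 FPKM without carbon, against 374 and 379 FPKM at 2% glucose. *NCU03396* had 0.89 and 0.83 FPKM, against 164 and 172 FPKM, and *NCU01290* had 1.00 and 1.05 FPKM, against 157 and 154 FPKM.

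Sugar uptake genes were among those that rose most. Of 11 sugar transporter genes tested, 10 rose and none fell (median log2 fold change 4.60), although only 8 were called under median-ratio scaling. The list includes *rco-3*, a sensor of the transporter family, and lacks the glucose transporter genes *glt-1* and *hgt-2*, which were not analysed here by name, so its counts cover part of the glucose transport system. *hgt-1*, a high-affinity glucose transporter gene (chromosome VII, 1305454 to 1307833), had 2849 and 2687 FPKM without carbon, against 8.66 and 8.69 FPKM at 2% glucose (8.16 ± 0.056). *NCU05897* rose to 984 and 970 FPKM, against 1.61 and 2.32 FPKM (8.38 ± 0.065), and *NCU09287* to 436 and 437 FPKM, against 0.96 and 1.11 FPKM (7.75 ± 0.064). All 3 were under 10 FPKM in 2% glucose. The cellodextrin transporters, which import the short glucose chains released from cellulose, followed. *cdt-2* had 254 and 234 FPKM without carbon, against 0.27 and 0.52 FPKM at 2% glucose (7.46 ± 0.077), and *cdt-1*, whose locus overlaps a neighbour, had 98.4 and 93.5 FPKM, against 2.92 and 3.05 FPKM (4.60 ± 0.044). *NCU00821* rose less steeply, to 671 and 651 FPKM, against 47.78 and 45.04 FPKM (3.80 ± 0.034). The exception was *NCU00809*, listed at 0 in both libraries without carbon, against 5.70 and 6.08 FPKM at 2% glucose, and too low in both media for a call.

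The sensor and regulator genes named here changed less in size than the rising transporter genes named above. *rco-3* had 20.47 and 21.03 FPKM without carbon, against 8.27 and 8.60 FPKM at 2% glucose (1.21 ± 0.064), and this call was lost under median-ratio scaling (0.89). *col-26* was not called, with 20.9 and 21.4 FPKM without carbon, against 16.7 and 18.1 FPKM at 2% glucose (0.27 ± 0.066), and its value was -0.06 under median-ratio scaling. Of 19 genes of glucose sensing and signalling 2 rose and 4 fell (median 0.12). The share called, 31.6%, was close to the 29.3% of all genes tested and below the 56% of genes above 20 FPKM in either group. *prk-10*, the orthologue of the yeast energy-sensing kinase gene SNF1, had 126 and 129 FPKM without carbon, against 26.7 and 27.1 FPKM at 2% glucose (2.204 ± 0.039). *cre-1*, for the transcriptional repressor of carbon catabolite repression, had 13.5 and 14.6 FPKM, against 52.0 and 50.9 FPKM (-1.80 ± 0.038). *vib-1*, a transcription factor gene, had 4.86 and 4.67 FPKM, against 43.9 and 44.9 FPKM (-2.98 ± 0.046), and *gna-1*, a G protein alpha subunit gene, had 40.02 and 39.88 FPKM, against 97.0 and 97.4 FPKM (-1.26 ± 0.047). The kinase gene and the repressor gene thus moved in opposite directions.

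Genes for using polymers rose in part. Of 5 starch and sucrose hydrolase genes 4 rose (median 5.14). *inv*, the invertase gene, whose locus overlaps a neighbour, had 949 and 936 FPKM without carbon, against 10.4 and 9.84 FPKM at 2% glucose (6.41 ± 0.034), *gla-1*, a glucoamylase gene, had 529 and 492 FPKM, against 6.85 and 7.29 FPKM (5.99 ± 0.048), and the trehalase gene *tre-1* had 81.9 and 82.9 FPKM, against 1.23 and 1.5 FPKM (5.14 ± 0.063). Of 30 tested genes of plant cell wall-degrading enzymes 3 rose (10.0%, median 1.00), against 16.9% of all genes called higher. Of the 30, 24 were highest without carbon among the 4 media, as were 4326 of all 7981 genes tested. Most did not reach 20 FPKM in either medium, with a summed share of 0.0524 and 0.0516% of all FPKM without carbon, against 0.00981 and 0.0103% at 2% glucose. *gh28-2* reached 87.1 and 89.8 FPKM, against 0.13 FPKM in both libraries (6.31 ± 0.097), and *gh10-2* reached 32.3 and 34.7 FPKM, against 0.25 and 0.35 FPKM (4.73 ± 0.050). The cellobiohydrolase gene *cbh-1*, at 14.8 and 15.1 FPKM without carbon against 1.04 and 1.27 FPKM at 2% glucose, stayed under the level needed for a call, as did *gh7-1*, at 18.5 and 16.8 FPKM, against 1.53 and 0.95 FPKM. Among 37 other glycosyl hydrolase genes 11 rose and 2 fell (median 1.05), with *gh3-3* at 191 and 193 FPKM without carbon, against 0.38 and 0.34 FPKM at 2% glucose (7.15 ± 0.047). The share of this list called was 35.1%, against 29.3% of all genes tested. Of 6 transcription factor genes of polysaccharide use, *xlr-1*, the xylanase regulator gene (3.87 ± 0.087), and *clr-1*, a cellulose regulator gene (2.54 ± 0.041), rose, while *cre-1* and *vib-1* fell.

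In central carbon metabolism, genes of sugar synthesis rose and most genes of sugar breakdown fell. All 7 genes of the glyoxylate cycle and gluconeogenesis rose (median 6.57), and together they held 2.61 and 2.41% of all FPKM without carbon, against 0.0488 and 0.0496% at 2% glucose. *fbp-1*, the gene of fructose-1,6-bisphosphatase (chromosome VI, 854430 to 856333), had 2211 and 2240 FPKM without carbon, against 3.98 and 3.46 FPKM at 2% glucose (8.88 ± 0.049). *acu-6*, the gene of phosphoenolpyruvate carboxykinase, had 3742 and 3350 FPKM, against 16.8 and 16.3 FPKM (7.66 ± 0.047). Both are enzymes particular to gluconeogenesis. *acu-9*, for malate synthase, had 3462 and 3282 FPKM, against 18.66 and 20.03 FPKM (7.37 ± 0.033), and *acu-3*, for isocitrate lyase, had 2006 and 1827 FPKM, against 18.9 and 19.3 FPKM (6.57 ± 0.042). These 2 enzymes make up the glyoxylate bypass, and both transcripts were low in glucose. *acu-5*, for acetyl-CoA synthetase, rose less, to 1181 and 1104 FPKM, against 118 FPKM in both libraries (3.27 ± 0.040).

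Of 10 genes of glycolysis and ethanol fermentation 6 fell and 2 rose (median -1.5), and 7 fell and 1 rose under median-ratio scaling. *emp-6*, a glycolysis gene, had 21.1 and 23.4 FPKM without carbon, against 507 FPKM in both libraries at 2% glucose (-4.45 ± 0.041). *cfp*, which encodes pyruvate decarboxylase, had 95.8 and 96.3 FPKM, against 1891 and 1958 FPKM (-4.31 ± 0.038), and *emp-3* had 14.3 and 14.6 FPKM, against 163 and 162 FPKM (-3.404 ± 0.031). *gpd-1*, the glyceraldehyde-3-phosphate dehydrogenase gene, was among the 5 most abundant transcripts at 2% glucose and had 2249 and 2213 FPKM without carbon, against 6965 and 7185 FPKM there (-1.67 ± 0.033). The members that rose were *adh-1*, an alcohol dehydrogenase gene whose locus overlaps a neighbour, and *emp-1*, a hexokinase gene. *adh-1* had 6861 and 6407 FPKM without carbon, against 672 and 677 FPKM at 2% glucose (3.30 ± 0.042). Pyruvate decarboxylase and alcohol dehydrogenase, neighbours in ethanol fermentation, therefore moved in opposite directions. *emp-1* had 342 and 363 FPKM, against 152 and 154 FPKM (1.196 ± 0.038), and its call was lost under median-ratio scaling (0.86).

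Of 18 TCA cycle genes 11 rose and 4 fell (median 1.21), and 7 rose and 4 fell under median-ratio scaling. The largest increases were those of *tca-2* (4.93 ± 0.039), *tca-16* (3.16 ± 0.045) and *tca-14* (2.90 ± 0.052). *tca-2* had 802 and 792 FPKM without carbon, against 26.2 and 24.3 FPKM at 2% glucose. *NCU00977*, annotated as aconitate hydratase, fell most, with 8.84 and 9.33 FPKM, against 76.3 and 76.7 FPKM (-2.94 ± 0.067). Of 24 genes of fatty acid oxidation and peroxisomes 19 rose and none fell (median 1.33), although only 11 were called under median-ratio scaling. *fox-2*, for the multifunctional enzyme of peroxisomal beta-oxidation, had 628 and 607 FPKM without carbon, against 16.8 and 17.4 FPKM at 2% glucose (5.10 ± 0.032), and *pex11*, for a protein of peroxisome proliferation, had 643 and 623 FPKM, against 20.9 and 19.5 FPKM (4.90 ± 0.042). *NCU00299*, annotated as a peroxisomal enoyl-CoA isomerase, had 240 and 245 FPKM, against 4.03 and 2.19 FPKM (5.93 ± 0.122). The 3 genes of pentose catabolism all rose as well (median 2.98). Among 7 pentose phosphate pathway genes 1 rose and 2 fell (median 0.22), and the increase, that of *ppm-3* (1.02 ± 0.069), was lost under median-ratio scaling (0.69). The share of this list called was 42.9%, against 29.3% of all genes tested. Of 6 genes of glycogen and trehalose metabolism only *tre-1* was called (16.7%).

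Of 44 genes of the respiratory chain and ATP synthase none rose and 5 fell (median 0.18), with 11 falling under median-ratio scaling. The 5 are a share of 11.4%, against 12.4% of all genes called lower. This list was abundant, with medians of 283 FPKM without carbon and 252 FPKM at 2% glucose. Of genes above 20 FPKM in either group 56% were called in either direction, so fewer of this list were called than of such genes. *cyc-1*, the cytochrome c gene, had 54.9 and 61.5 FPKM without carbon, against 1587 and 1584 FPKM at 2% glucose (-4.75 ± 0.062). The next 2 changes were smaller, at -1.68 ± 0.032 for *NCU00644* (ATP synthase subunit G) and -1.34 ± 0.042 for *oli* (ATP synthase proteolipid subunit), and *oli* lost its call under quantile normalization (-0.62). The decrease of cytochrome c thus had no counterpart of its size in this list. Among 6 alternative respiratory enzyme genes 3 fell (median -1.52). The external NAD(P)H dehydrogenase gene *nde-2* had 10.4 and 9.89 FPKM, against 191 and 192 FPKM (-4.11 ± 0.057), *aod-1*, the alternative oxidase gene, had 22.6 and 20.5 FPKM, against 159 and 164 FPKM (-2.85 ± 0.050), and *ndi-1* had 3.45 and 3.4 FPKM, against 26.8 and 27.2 FPKM (-2.66 ± 0.063).

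**Figure D2:**
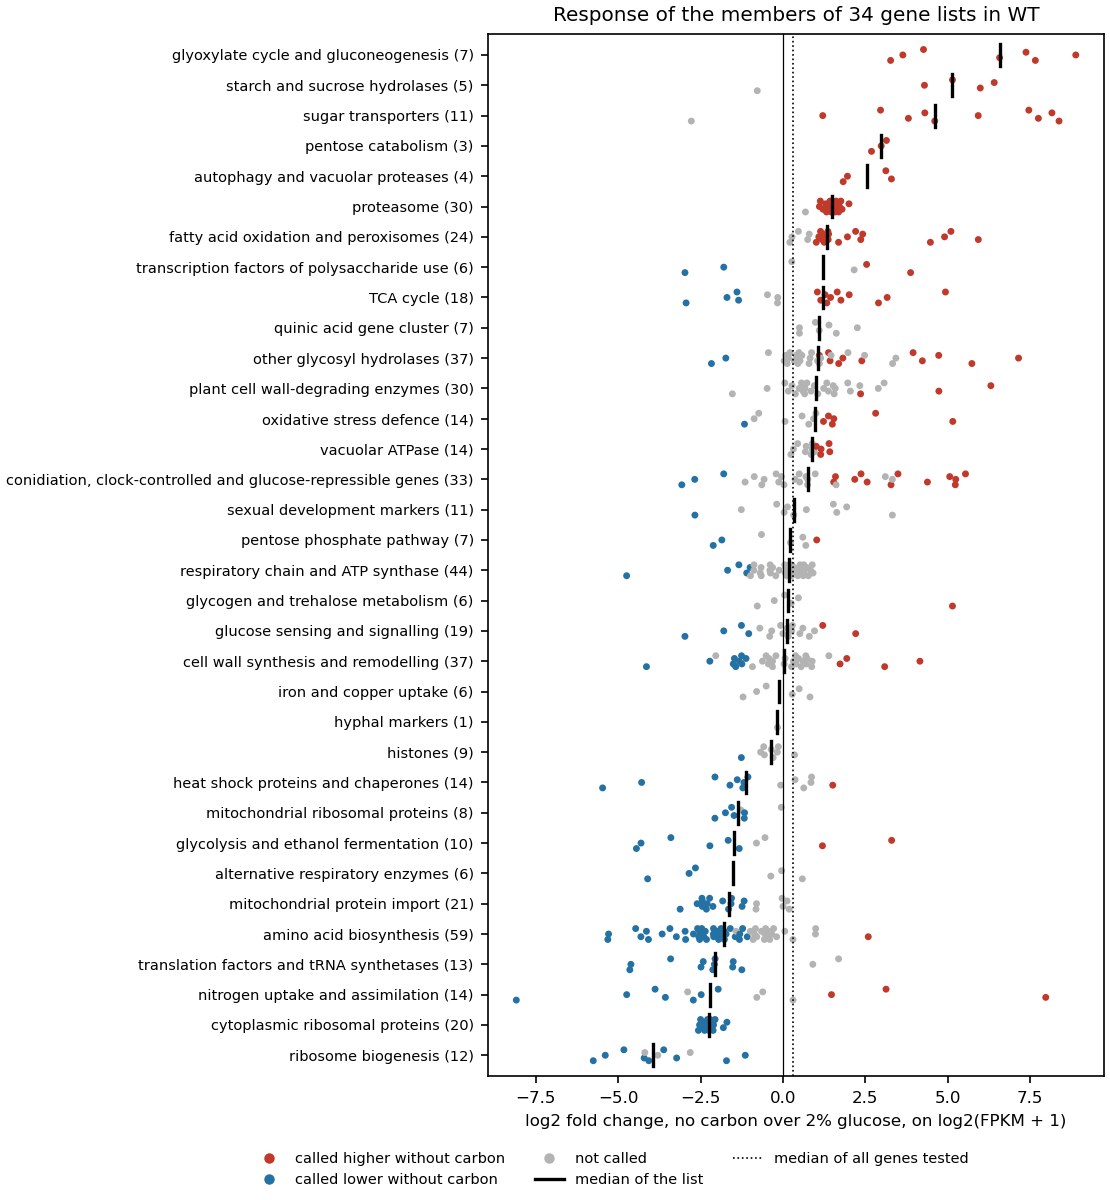
Log2 fold change (no carbon over 2% glucose, on log2(FPKM + 1)) of every tested member of 34 gene lists in WT, with called genes in red (higher) or blue (lower), the others in grey, the number tested in parentheses, a bar at each list's median and a dotted line at the median of all genes (0.31). The medians run between 6.57 for the glyoxylate cycle and gluconeogenesis and -3.94 for ribosome biogenesis.

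Most genes of the machinery of protein synthesis fell. All 20 cytoplasmic ribosomal protein genes matched fell, within a narrow range of log2 fold change between -2.57 and -1.70 (median -2.26), and their share of all FPKM was 2.07 and 2.14% without carbon, against 9.27 and 9.03% at 2% glucose. *NCU00979*, for the acidic ribosomal protein P2, had 758 and 817 FPKM without carbon, against 4715 and 4626 FPKM at 2% glucose (-2.57 ± 0.037), and *crp-5* had 472 and 525 FPKM, against 2896 and 2755 FPKM (-2.50 ± 0.046). These abundant transcripts kept to within 1 log2 unit of each other in their response. Genes of ribosome assembly fell further, with 9 of 12 lower (median -3.94). *NCU00105*, for a 60S assembly factor of the NIP7 type, had 0.55 and 0.84 FPKM, against 94.5 and 86.6 FPKM (-5.76 ± 0.107), and *NCU00925*, annotated as pescadillo, had 0.68 and 1.00 FPKM, against 75.7 and 76.5 FPKM (-5.40 ± 0.071). Of 13 translation factor and tRNA synthetase genes 11 fell (median -2.08). The other 2, *NCU00535* (1.69) and *NCU00466* (0.90), were higher without carbon but not called. The elongation factor gene *tef-1* fell least of those named here, with 2569 and 2509 FPKM, against 7338 and 7311 FPKM (-1.53 ± 0.042), whereas *NCU00931*, for lysyl-tRNA synthetase, had 0.50 and 0.59 FPKM, against 35.8 and 39.8 FPKM (-4.65 ± 0.063).

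The decrease reached mitochondrial biogenesis and the building of amino acids. Of 8 mitochondrial ribosomal protein genes 6 fell (median -1.38), and of 21 genes of mitochondrial protein import 15 fell (median -1.65), including *tim8* (-3.12 ± 0.060) and *tom20* (-2.61 ± 0.037). *tom20*, for a receptor of the outer membrane translocase, had 24.7 and 23.1 FPKM without carbon, against 153 and 148 FPKM at 2% glucose. Of 59 amino acid biosynthesis genes 38 fell and 1 rose (median -1.79). *ilv-2*, of branched-chain amino acid synthesis, had 24.4 and 22.1 FPKM, against 961 and 969 FPKM (-5.32 ± 0.082), *arg-3*, of arginine synthesis, had 1.21 and 1.14 FPKM, against 83.2 and 85.5 FPKM (-5.30 ± 0.057), and *lys-6*, of lysine synthesis, had 1.87 and 1.92 FPKM, against 63.4 and 63.2 FPKM (-4.47 ± 0.052). The gene that rose was *ilv-5*, with 77.1 and 80.5 FPKM, against 11.9 and 12.7 FPKM (2.59 ± 0.052), so the *ilv* genes did not move together. Of 14 tested genes of nitrogen uptake and assimilation 7 fell and 3 rose (median -2.23). Next to *am*, the nitrite reductase gene *nit-6* had 3.31 and 2.96 FPKM, against 109 and 110 FPKM (-4.75 ± 0.046), and the locus annotated as ammonium transporter MEP2, *NCU01065*, had 3.97 and 3.34 FPKM, against 67.1 and 68.0 FPKM (-3.88 ± 0.072).

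Genes of protein breakdown rose while most of those of protein synthesis fell. Of 30 proteasome genes 29 rose and none fell (median 1.5, range 0.68 to 2.00), and 24 were called under median-ratio scaling. *pcb-6*, of the core particle, had 603 and 631 FPKM without carbon, against 153 FPKM in both libraries at 2% glucose (2.00 ± 0.040), and *pca-2* had 519 and 524 FPKM, against 149.9 and 150.1 FPKM (1.79 ± 0.028). All 4 genes of autophagy and vacuolar proteases rose (median 2.54). *pep4*, for the vacuolar aspartic protease, had 1145 and 1225 FPKM, against 119 and 121 FPKM (3.29 ± 0.033), *NCU00477*, for carboxypeptidase Y, had 1113 and 1127 FPKM, against 125 and 130.4 FPKM (3.12 ± 0.031), and *atg-8*, for the ubiquitin-like protein of the autophagosome membrane, had 1086 and 1186 FPKM, against 296 and 288 FPKM (1.96 ± 0.040). The 2 vacuolar protease genes thus had larger fold changes than any proteasome gene. Of 14 vacuolar ATPase genes 5 rose and none fell (median 0.88), and 2 rose under median-ratio scaling, which ended the call of *vma-4* (0.82). The share of this list called was 35.7%, against 29.3% of all genes tested and 56% of genes above 20 FPKM.

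Stress and chaperone genes did not share a direction. Of 14 heat shock protein and chaperone genes 8 fell and 1 rose (median -1.13). *hsp70-2* had 39.3 and 40.8 FPKM without carbon, against 1802 and 1848 FPKM at 2% glucose (-5.48 ± 0.041), *hsp60*, for the mitochondrial chaperonin, had 23.0 and 23.3 FPKM, against 98.3 and 102 FPKM (-2.07 ± 0.077), and *grp78*, for the chaperone of the endoplasmic reticulum, rose to 576 and 568 FPKM, against 202 and 198 FPKM (1.51 ± 0.026). Of 14 genes of oxidative stress defence 6 rose and 1 fell (median 0.96). The catalase gene *cat-2* had 143 and 140 FPKM without carbon, against 3.22 and 2.81 FPKM at 2% glucose (5.15 ± 0.078), *cat-1*, the other catalase gene called, had 31.5 and 29.3 FPKM, against 3.43 and 3.52 FPKM (2.81 ± 0.056), and the glutathione S-transferase gene *gst-3* fell (-1.17 ± 0.051).

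Of 33 conidiation, clock-controlled and light- or glucose-regulated genes 12 rose and 3 fell (median 0.75), and the list held 5.68 and 5.76% of all FPKM without carbon, against 1.36 and 1.42% at 2% glucose. Most of that sum came from 2 genes. *ccg-16* was the most abundant transcript without carbon, at 14488 and 15285 FPKM, against 2530 and 2540 FPKM at 2% glucose (2.55 ± 0.044), and *ccg-1*, a glucose-repressible clock-controlled gene, had 12605 and 12826 FPKM, against 338 FPKM in both libraries (5.23 ± 0.043). *eas*, for the hydrophobin that coats conidia, had 255 and 246 FPKM, against 6.16 and 5.19 FPKM (5.24 ± 0.058), *con-10* had 46.9 and 46.4 FPKM, against 0.48 and 0.38 FPKM (5.06 ± 0.051), and *con-8* had 48.5 and 50.5 FPKM, against 1.22 and 1.64 FPKM (4.38 ± 0.087). *fl*, the gene of the transcription factor that starts conidiation, was not called, at 4.84 and 4.56 FPKM without carbon, against 4.40 and 5.43 FPKM at 2% glucose (-0.05 ± 0.092). The genes *eas*, *con-10* and *con-8* thus rose without a call for *fl*, and whether the number of conidiating cells or the level per cell differed cannot be told apart in RNA from whole mycelium. The circadian gene *frq* was not called (0.03, and -0.30 under median-ratio scaling).

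The transcripts at the top of each library changed accordingly. The 5 most abundant genes without carbon were *ccg-16*, *NCU03415*, *ccg-1*, *adh-1* and *NCU05498*, and the 5 at 2% glucose were *NCU06110*, *gpd-1*, *tef-1*, *nmt-1* and *NCU08990*, so none was shared. *NCU05498* had 4701 and 5012 FPKM without carbon, against 593 and 601 FPKM at 2% glucose (3.02 ± 0.053). *nmt-1*, a thiamine synthesis gene, had 2008 and 2074 FPKM without carbon, against 6075 and 6122 FPKM at 2% glucose (-1.58 ± 0.028). *NCU06110* (-1.46 ± 0.027) and *NCU08990* (-2.36 ± 0.036) fell as well.

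The 0.05 and 0.5% glucose libraries of WT placed these changes along the glucose series. Genes called higher without carbon had a median of 69.1 FPKM without carbon, 17.8 FPKM at 0.05%, 14.4 FPKM at 0.5% and 13.7 FPKM at 2% glucose, and 1305 of the 1352 were highest without carbon. Genes called lower had medians of 16.0, 47.9, 66.7 and 73.6 FPKM in the same order of media, and 751 of the 986 were highest at 2% glucose. Most of the difference in the higher genes thus lay between no carbon and 0.05% glucose. These medians are given as a description, since the calls chose the genes.

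Genes differed in where along the series they changed. *fbp-1* averaged 2225 FPKM without carbon, 9.88 FPKM at 0.05%, 3.78 FPKM at 0.5% and 3.72 FPKM at 2% glucose, and *cdt-2* averaged 244, 0.71, 0.38 and 0.40 FPKM in the same media, so the lowest glucose concentration was enough to bring both close to their 2% glucose levels. *hgt-1* averaged 2768, 632, 18.8 and 8.68 FPKM and *NCU05897* averaged 977, 530, 5.59 and 1.97 FPKM, and both transporters were still high at 0.05% glucose. *inv* averaged 943, 3164, 24.2 and 10.1 FPKM, with its peak at 0.05%. Glycolysis had such a peak too, with 8 of its 10 genes highest at 0.05% glucose, against 919 of all 7981 genes tested. The list medians were 404, 2740, 1352 and 909.5 FPKM. *gpd-1* averaged 2231, 12741, 8585 and 7075 FPKM and *cfp* averaged 96.0, 4127, 2843 and 1924 FPKM. In contrast, all 20 cytoplasmic ribosomal protein genes and all 12 ribosome biogenesis genes were highest at 2% glucose, against 2095 of all 7981 genes tested. *am* averaged 3.50, 492, 762 and 1228 FPKM. No test was run between the intermediate media.

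**Figure D3:**
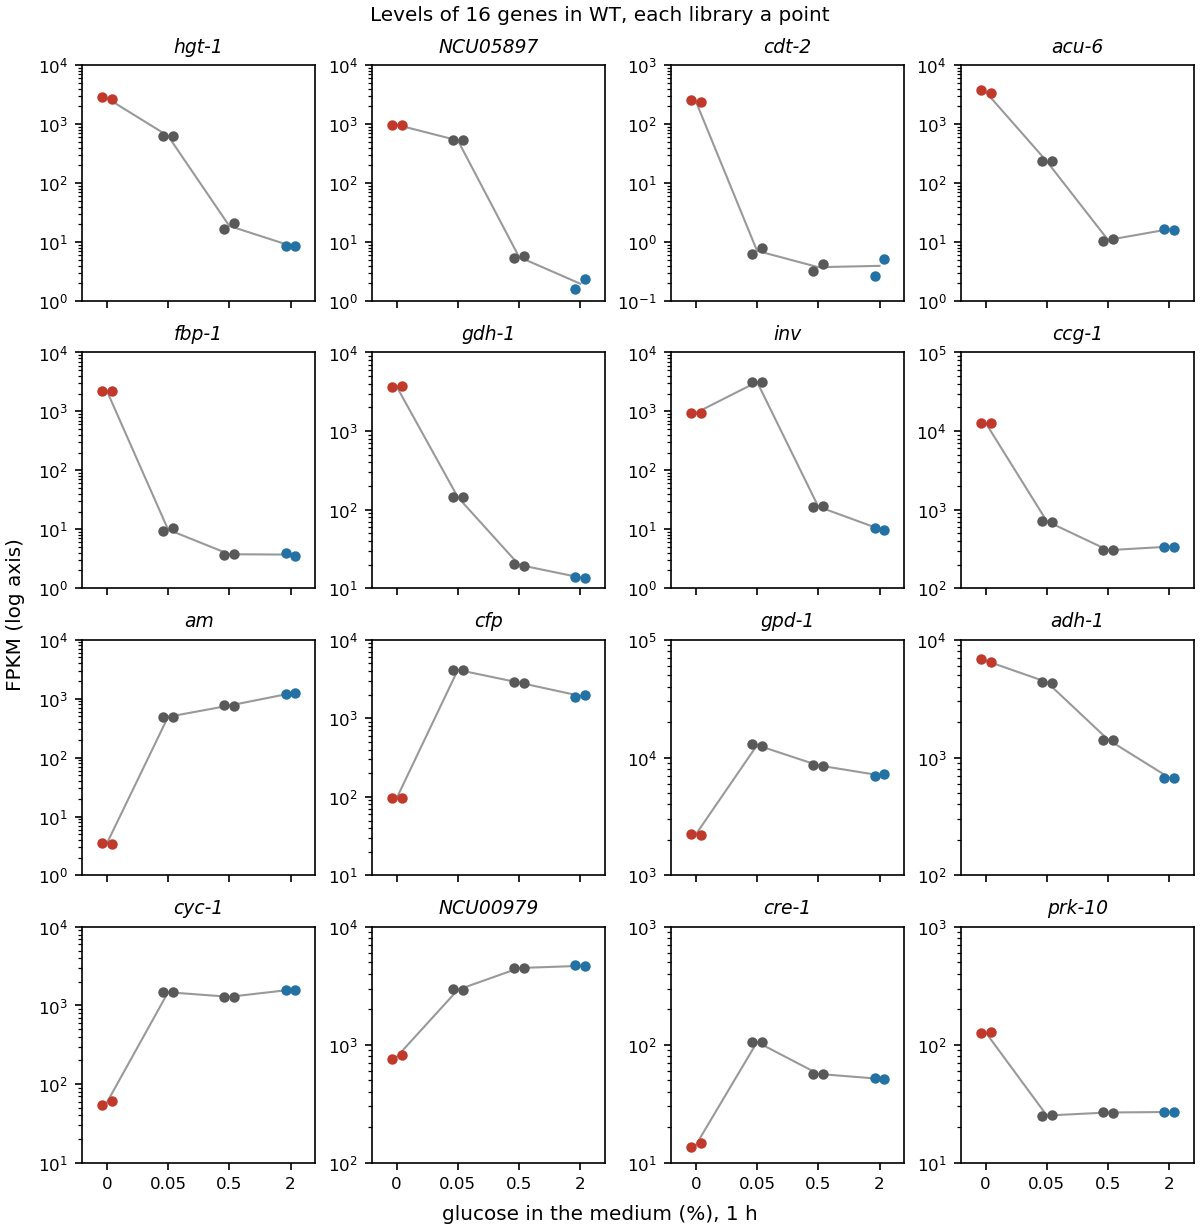
FPKM (log axis) of 16 genes in WT after 1 h in medium without carbon or with 0.05, 0.5 or 2% glucose, with each of the 2 libraries per medium as a point (red without carbon, blue at 2% glucose) and a line through the means. *fbp-1* and *cdt-2* drop between 0 and 0.05% glucose, *hgt-1* and *NCU05897* between 0.05 and 0.5%, and *inv*, *cfp*, *gpd-1* and *cre-1* peak at 0.05%.

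Whether the starvation response depended on the strain was asked with the difference between the WT response and that of each mutant, tested in the same model (limma, Benjamini-Hochberg). The WT response differed from that in Δ*rco-3* in 1092 genes (13.7%), with 714 (8.95%) responses higher and 378 (4.74%) lower in WT. It differed from that in the libraries labelled Δ*col-26* in 1204 genes (15.1%), with 882 (11.1%) higher and 322 (4.03%) lower. Higher and lower refer to the signed log2 fold change, so a larger fall in WT counts as lower. Among genes called lower without carbon in WT, 318 counted as lower against Δ*rco-3* and 221 against the Δ*col-26* libraries. Both comparisons use the same 4 WT libraries, and the mutants were not tested against each other here.

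The transporter genes were read one by one. *hgt-1* had a log2 fold change of 8.16 in WT, against 1.44 in Δ*rco-3* (difference 6.72 ± 0.079, adjusted p = 2.26e-22) and 1.01 in the libraries labelled Δ*col-26* (difference 7.16 ± 0.079, adjusted p = 4.18e-23). Its levels without carbon were 2768 FPKM in WT, 499 ± 2.44 FPKM in Δ*rco-3* and 316 ± 0.56 FPKM in libraries labelled Δ*col-26*, and at 2% glucose they were 8.68 ± 0.021 FPKM in WT, 183 ± 3.73 FPKM in Δ*rco-3* and 157 ± 0.30 FPKM in those labelled Δ*col-26* (SD, n = 2 each). The smaller response in the mutants thus had 2 sides, a lower level without carbon and a higher level in glucose. *NCU09287* differed in another way, since at no carbon it had 436 FPKM in WT, 395 ± 6.80 FPKM in Δ*rco-3* and 426 ± 6.15 FPKM in libraries labelled Δ*col-26*, while at 2% glucose it had 1.04 FPKM in WT, 453 ± 2.02 FPKM in Δ*rco-3* and 697 ± 0.61 FPKM in those labelled Δ*col-26*. Its difference in response was 7.95 ± 0.091 relative to Δ*rco-3* and 8.46 ± 0.091 relative to the Δ*col-26* libraries, and it lay almost wholly in the glucose libraries.

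*NCU05897* was also far higher at 2% glucose in Δ*rco-3* (difference 8.74 ± 0.092), at 410 FPKM, against 1.97 FPKM in WT. Without carbon it was lower in Δ*rco-3*, at 318 FPKM, against 977 FPKM in WT. In the Δ*col-26* libraries it had 2127 FPKM without carbon and 644 FPKM at 2% glucose (difference 6.66 ± 0.092). *NCU00821* differed from WT by 3.43 ± 0.048 in the Δ*col-26* libraries, and by 0.99 ± 0.048 in Δ*rco-3*, just under the fold change needed for a call. *cdt-2* differed by 4.11 ± 0.109 in Δ*rco-3* and 5.202 ± 0.109 in the Δ*col-26* libraries, and *cdt-1* by 2.69 ± 0.062 and 1.75 ± 0.062. All 6 of these transporter genes were therefore called as responding more in WT than in the Δ*col-26* libraries, and 5 of the 6 than in Δ*rco-3*. The paper had named them from the same libraries as genes with an impaired glucose response in both mutants. This tally therefore adds no separate support. The genes of largest change kept their direction in both mutants. In Δ*rco-3* *NCU03415* had 9598 FPKM without carbon and 368 FPKM at 2% glucose, and in libraries labelled Δ*col-26* it had 7090 FPKM without carbon and 862 FPKM at 2% glucose, with differences of 5.88 ± 0.057 and 7.54 ± 0.057. The decrease of *am* differed from WT by -2.05 ± 0.219 in Δ*rco-3* and was not called different in the Δ*col-26* libraries (-0.26 ± 0.219).

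**Figure D4:**
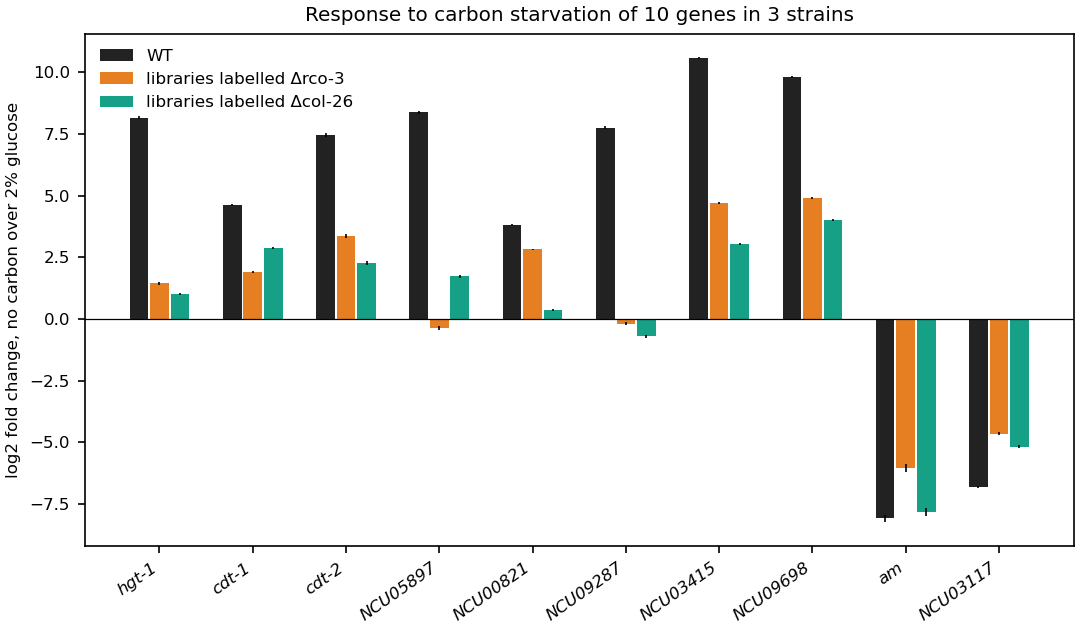
Log2 fold change (no carbon over 2% glucose, on log2(FPKM + 1)) of 10 genes in WT (black), in libraries labelled Δ*rco-3* (orange) and in libraries labelled Δ*col-26* (green), with 2 libraries per strain and medium and error bars of 1 SE from the shared fit. The WT bar is the longest for every gene, and the bars of *NCU05897* in Δ*rco-3* and of *NCU09287* in both mutants lie near or below 0.

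Gene lists differed in how their response in the mutants related to that in WT, and no test compared one list with another. Over all genes tested, 8.95% had a higher and 4.74% a lower signed response in WT than in Δ*rco-3*. Against the Δ*col-26* libraries these shares were 11.1 and 4.03%. All 7 genes of the glyoxylate cycle and gluconeogenesis responded more in WT than in either mutant, with list medians of 6.57 in WT, 2.84 in Δ*rco-3* and 1.76 in the Δ*col-26* libraries. Of 30 proteasome genes 18 responded more in WT than in Δ*rco-3* and 25 more than in the Δ*col-26* libraries, with medians of 1.5 in WT, 0.47 in Δ*rco-3* and 0.37 in the Δ*col-26* libraries. The decrease of the 20 cytoplasmic ribosomal protein genes differed from WT in 4 genes for Δ*rco-3* and in none for the Δ*col-26* libraries, with medians of -2.26 in WT, -1.35 in Δ*rco-3* and -2.52 in the Δ*col-26* libraries. Of the 10 glycolysis and fermentation genes 5 fell further in WT than in Δ*rco-3* and 7 further than in the Δ*col-26* libraries, where the list median was 0.46, against -1.5 in WT. The 12 ribosome biogenesis genes had a median of -3.94 in WT and -2.64 in both mutants, and 6 of them fell further in WT than in Δ*rco-3* and 4 further than in the Δ*col-26* libraries. Amino acid biosynthesis went the other way in its medians for both mutants, at -1.79 in WT, -2.02 in Δ*rco-3* and -2.29 in the Δ*col-26* libraries. Of its 59 genes 7 had a higher and 3 a lower signed response in WT than in Δ*rco-3*, against 12 and 3 for the Δ*col-26* libraries. Higher here means a smaller fall, or a larger rise, in WT. These counts are to be read beside the shares of all genes given above, and most genes of the list were not called different. The plant cell wall-degrading enzyme list had a median of 1.00 in WT, 1.25 in Δ*rco-3* and 0.96 in the Δ*col-26* libraries.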

How the data were processed

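The authors sequenced mycelial RNA on a BGISEQ platform, trimmed reads with Trimmomatic 0.36, aligned them to the transcripts predicted in the OR74A genome, with counting by RSEM 1.2.8, and the deposited values are FPKM per locus (9730 loci per library). The aligner is Bowtie2 in the paper's methods and HISAT2 2.1.0 in the submitters' processing notes. FPKM are not counts, so no count model was run, and absolute depth is unknown. Strand use in counting is not given in the sources used here, so a gene and an overlapping neighbour cannot be told apart. Of 114 genes named by the rule 33 overlap another locus, including *NCU00129*, *NCU00105*, *NCU00299*, *NCU01065*, *cdt-1*, *inv*, *tre-1*, *emp-3*, *adh-1*, *oli*, *arg-3*, *ilv-2*, *gh28-2*, *gh10-2*, *tca-16*, *tim8*, *vma-4*, *gst-3* and *NCU06110*, and their values are uncertain to that extent.

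log2(FPKM + 1) was fitted with limma 3.58.1 in R 4.3.3 (lmFit, contrasts.fit, eBayes with trend), all 12 groups sharing 1 fit with 12 residual degrees of freedom. The 7981 genes tested averaged at least 1 FPKM in 1 or more groups. The script was tested on simulated data for this comparison, where 200 of 200 changed genes among 6986 were called and 0 others. All planted changes lay beyond the fold change and FPKM thresholds, and the simulation held no shift in scaling. It therefore checked that the code runs correctly and cannot show how reliable the calls in the real data are. Fold changes understate the change of low genes because of the pseudocount of 1. Symbols and positions came from RefSeq (NC12), where 1118 loci have a symbol, and names from the annotation of 1027 loci in the paper's supplement, which is shortened, so 34 gene lists cover 566 loci (551 tested) and miss members without a symbol. The lists, rules and alternatives were chosen with earlier results of these data known, and 7 lists were added after the annotation was read. Named genes are the 4 largest changes in each direction, up to 3 called members per list and 1 in the other direction, the sensor and transporter genes, and the 5 most abundant genes per group. *acu-3*, *acu-5*, *con-8*, *con-10*, *fl*, *frq*, *cbh-1*, *gh7-1*, *emp-1*, *qa-2*, *NCU00809*, *NCU08491* and *NCU00695* were named after their values were seen, as were *con-6* and *hex-1*, which also overlap other loci. SEs and p-values rest on the spread between the 2 samples of a group, pooled over all 12 groups. They therefore do not measure the spread of the WT groups alone. Among genes above 20 FPKM, WT without carbon had the largest SD of the log2 difference between replicates of the 12 groups (0.1061). Alternatives were other pseudocounts, filters, scalings, thresholds, sample sets, a replicate block and each replicate left out. Python 3.11.15 and matplotlib 3.10.9 served for tables and figures.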

Additional observations from a re-analysis of the deposited data

Results flagged for a closer look

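The response to starvation was tested for a difference between WT and each mutant, and the values below are WT response minus mutant response on the log2(FPKM + 1) scale, all past the test (limma, Benjamini-Hochberg). Against Δ*rco-3* 1092 genes differed, and among the genes read one by one the difference was 6.72 for *hgt-1*, 2.69 for *cdt-1*, 4.11 for *cdt-2*, 8.74 for *NCU05897*, 7.95 for *NCU09287*, 5.88 for *NCU03415*, 4.90 for *NCU09698*, -2.05 for *am* and -2.16 for *NCU03117*. Against the libraries labelled Δ*col-26* 1204 genes differed, and the difference was 7.16 for *hgt-1*, 1.75 for *cdt-1*, 5.202 for *cdt-2*, 6.66 for *NCU05897*, 3.43 for *NCU00821*, 8.46 for *NCU09287*, 7.54 for *NCU03415*, 5.81 for *NCU09698* and -1.63 for *NCU03117*. In these libraries *col-26* itself was at 10.5 FPKM without carbon, against 21.1 FPKM in WT, and its part in these differences was not tested.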

How the results depend on the processing

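The count of 2338 calls was 3540 (2196 higher, 1344 lower) with no minimum FPKM on the calls and 1193 (660 higher, 533 lower) when a log2 change of 2 was required, where the differences in response numbered 276 (Δ*rco-3*) and 362 (libraries labelled Δ*col-26*). Pseudocounts of 0.1 and 5 gave 2379 and 2168 calls. Leaving out 1 WT replicate gave 2323 to 2354 calls (1339 to 1363 higher, 981 to 991 lower), and with mutant replicates included 1074 to 1104 differences in response (Δ*rco-3*) and 1187 to 1224 (libraries labelled Δ*col-26*). *ppm-3* lost its call without the first no carbon replicate (0.92) and without the first 2% glucose replicate (0.97), and signs turned for the uncalled genes *col-26* (-0.056 under median-ratio scaling), *frq* (-0.298 under median-ratio scaling, -0.25 under quantile normalization), *hex-1* (0.061 under quantile normalization) and *fl* (-0.174 to 0.078 with 1 replicate left out, above 0 only without the second 2% glucose replicate). Apart from the threshold of 2, the other calls lost among genes named in the text were *rco-3* (0.94 at a pseudocount of 5, 0.89 under median-ratio scaling, 0.97 under quantile normalization), *ppm-3* (0.97, 0.69 and 0.70 in the same settings), *emp-1* (0.86 under median-ratio scaling, 0.82 under quantile normalization), *vma-4* (0.82 under median-ratio scaling, 0.74 under quantile normalization) and *oli* (-0.62 under quantile normalization). The cause was not tested. Replicate numbers did not pair the libraries (correlation of replicate differences -0.25 between the 2 WT groups), and the fit with the replicate number as a block gave 2338 calls, or 2337 in the 4 libraries alone, and 2338 there with the numbers crossed, an alternative chosen after seeing the data. With 2 libraries per group and no counts, differences in genes of a few FPKM were least secure.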

Other observations

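Several small gene groups complete the picture of starved WT mycelium. The 3 pentose catabolism genes rose together, with the xylitol dehydrogenase gene *xdh-1* at 38.1 and 37.7 FPKM without carbon, against 3.42 and 3.41 FPKM at 2% glucose (log2 fold change 3.14 ± 0.048, SE), the xylose reductase gene *xr* at 61.04 and 56.32 FPKM, against 6.11 and 7.05 FPKM (2.98 ± 0.057), and the xylulokinase gene *xyk-1* at 43.7 and 41.4 FPKM, against 5.41 and 6.15 FPKM (2.69 ± 0.073). In the quinic acid gene cluster, which serves the use of quinate as a carbon source, none of 7 genes was called, since all stayed under 20 FPKM, and their fold changes had a median of 1.10. *qa-2* had 10.6 and 11.8 FPKM without carbon, against 1.69 and 1.43 FPKM at 2% glucose. Of 37 tested genes of cell wall synthesis and remodelling 4 rose and 9 fell (median 0.03). The share called, 35.1%, was near the 29.3% of all genes tested and below the 56% of genes above 20 FPKM. The chitinase family gene *gh18-5* rose to 265 and 258 FPKM, against 12.8 and 14.7 FPKM (4.15 ± 0.061), while *NCU00309*, annotated as a WSC domain protein, fell to 19.2 and 19.1 FPKM, against 357 and 353 FPKM (-4.15 ± 0.038). Of 9 histone genes only *hH2Az* was called, lower without carbon (-1.27 ± 0.036), and of 6 genes of iron and copper uptake none was called. Among 11 tested markers of sexual development 1 fell, *asd-1*, with 3.06 and 2.72 FPKM, against 22.8 and 24.9 FPKM (-2.68 ± 0.121). These single calls, 9.09% of the sexual markers and 11.1% of the histone genes, stood beside 12.4% of all genes called lower.

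In 4 genes called higher, both 2% glucose libraries were listed at 0. The most abundant of them without carbon were *NCU08491*, at 424 and 384 FPKM, and *NCU00695*, at 265 and 270 FPKM, and both had no value above 0.22 FPKM on average at 0.05% glucose. None of 64 genes of the proteasome, the vacuolar ATPase and cytoplasmic ribosomal proteins was at 0 in any of the 4 libraries. No gene called lower was listed at 0 in both libraries without carbon.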
